A study of Mus musculus with 6 samples.

Results

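The ribosomal protein genes Rps2, Rpl15, Rpl36, Rpl28 and Rpl13a were examined for binding of Dppa2 together with the pseudogenes that carry their names. The 5 parent genes were chosen by the measured peaks themselves, as each had the midpoint of a Dppa2 peak within 1000 bp of a transcription start site (TSS), so that their binding is given as a description with no test. The binding of their pseudogenes was also known when the genes were chosen and is described in the same way. Their pseudogenes are all genes in GENCODE M1 on mm9 whose name is the parent's symbol followed by -ps and a number. This gave 24 genes, 5 parents and 19 pseudogenes, of 37273 annotated genes on the 21 chromosomes of the peak list.

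The data are an anti-V5 ChIP-seq library from CGR8 cells, a mouse embryonic stem cell (ESC) line grown without feeders in medium with leukemia inhibitory factor. The cells stably expressed Dppa2 with an N-terminal V5 tag from the CAG promoter of the pPyCAG vector, in puromycin-selected clones, and no removal of their own Dppa2 is described. An anti-V5 ChIP on the parental CGR8 line without the tag and ChIPs for H3K4me1, H3K4me3, H3K27ac and H3K9me3 make up the other 5 samples, which were not analysed here. Each condition has 1 library, so no replicate error can be given, and the depth is unknown because the deposited list holds intervals and scores but no reads.

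Ribosomal proteins form the small (Rps) and large (Rpl) subunits of the ribosome and are made in large amounts in nearly every cell. Their abundant messenger RNAs have often been reverse transcribed and inserted elsewhere in the genome by the machinery of LINE elements, which leaves retrocopies: copies of the spliced messenger RNA without introns and usually without the promoter of the parent gene. Dppa2 is a protein with a SAP DNA-binding domain, expressed in the early embryo, the germ line and ESCs.

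The absence of introns can be read from the sequence. For each parent, 60 bases are printed 5′ to 3′ around the exon junction nearest to the middle of the coding sequence, from mm9, because this stretch separates a retrocopy from the gene it came from. In the lines for the messenger RNA, capitals mark the downstream exon, and in those for the gene, capitals mark the intron. In the lines for the copies, capitals mark bases that differ from the messenger RNA. For Rps2, a protein of the small subunit, the junction joins exons 2 and 3 at chr17:24857647-24857676 and chr17:24857914-24857943, plus strand.
Rps2 messenger RNA: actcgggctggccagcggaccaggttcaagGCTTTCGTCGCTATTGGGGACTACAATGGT
Rps2 gene: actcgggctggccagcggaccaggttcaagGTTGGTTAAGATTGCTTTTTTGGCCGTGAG
Rps2-ps13: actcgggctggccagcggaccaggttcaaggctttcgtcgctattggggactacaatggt
Rps2-ps6: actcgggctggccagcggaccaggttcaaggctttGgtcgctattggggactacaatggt
Rps2-ps4: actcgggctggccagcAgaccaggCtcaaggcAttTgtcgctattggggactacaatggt
Rps2-ps13 (chrX:50252110-50252169, plus strand) had 0 differences and Rps2-ps6 (chr14:76636972-76637031, minus strand) had 1. Both had a Dppa2 peak. Rps2-ps4 (chr11:53459351-53459410, plus strand), which had none, differed at 4 bases.

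For Rpl15, a protein of the large subunit, the junction joins exons 3 and 4 on the minus strand of chromosome 14.
Rpl15 messenger RNA: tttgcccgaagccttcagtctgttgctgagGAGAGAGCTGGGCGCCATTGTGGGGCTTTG
Rpl15 gene: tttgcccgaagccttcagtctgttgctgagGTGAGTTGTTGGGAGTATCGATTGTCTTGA
Rpl15-ps3: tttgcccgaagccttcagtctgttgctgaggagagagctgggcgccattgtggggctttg
Rpl15-ps1: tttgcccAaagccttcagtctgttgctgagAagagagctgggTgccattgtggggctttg
The bound Rpl15-ps3 (chr9:21990327-21990386, minus strand) had 0 differences, and the unbound Rpl15-ps1 (chr11:21853383-21853442, plus strand) had 3. For Rpl36, also of the large subunit, the junction joins exons 2 and 3.
Rpl36 messenger RNA: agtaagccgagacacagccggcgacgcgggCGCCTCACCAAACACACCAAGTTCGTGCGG
Rpl36 gene: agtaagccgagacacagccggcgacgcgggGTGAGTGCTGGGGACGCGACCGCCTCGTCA
Gm4604: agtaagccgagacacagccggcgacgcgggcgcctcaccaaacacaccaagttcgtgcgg
Rpl36-ps3: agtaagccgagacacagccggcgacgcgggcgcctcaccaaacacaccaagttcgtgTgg
Rpl36-ps1: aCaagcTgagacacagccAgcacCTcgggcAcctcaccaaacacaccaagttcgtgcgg
Rpl36-ps7: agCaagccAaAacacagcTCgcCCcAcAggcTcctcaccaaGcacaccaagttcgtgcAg
Gm4604 (chr6:108090354-108090413, minus strand), an annotated pseudogene whose name does not show its parent, had 0 differences, and Rpl36-ps3 (chr12:12918891-12918950, plus strand) had 1. Rpl36-ps1 (chr11:116365893-116365951, plus strand) was bound with 8 differences, of which 2 are missing bases and 1 is an extra base. Rpl36-ps7 (chr3:99812346-99812405, plus strand) was unbound with 12.

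For Rpl28 the junction joins exons 3 and 4, and for Rpl13a exons 5 and 6. Both proteins belong to the large subunit, and Rpl13a is also known for a role outside the ribosome in the control of translation after interferon-gamma.
Rpl28 messenger RNA: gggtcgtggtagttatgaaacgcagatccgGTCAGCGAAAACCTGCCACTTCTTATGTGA
Rpl28 gene: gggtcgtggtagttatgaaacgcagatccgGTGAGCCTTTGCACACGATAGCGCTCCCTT
Rpl28-ps1: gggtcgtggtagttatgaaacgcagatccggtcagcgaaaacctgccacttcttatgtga
Rpl28-ps4: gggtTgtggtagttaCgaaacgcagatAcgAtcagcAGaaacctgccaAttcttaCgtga
Rpl13a messenger RNA: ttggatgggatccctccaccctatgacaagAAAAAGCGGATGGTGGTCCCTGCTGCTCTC
Rpl13a gene: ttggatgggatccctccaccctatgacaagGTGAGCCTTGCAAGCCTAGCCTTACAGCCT
Rpl13a-ps1: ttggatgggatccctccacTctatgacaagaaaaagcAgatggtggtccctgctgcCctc
The bound Rpl28-ps1 (chr1:129935321-129935380, plus strand) had 0 differences, as had Rpl28-ps3. The unbound Rpl28-ps4 (chr6:117163850-117163909, minus strand) had 8, and the unbound Rpl13a-ps1 (chr19:50104854-50104913, minus strand) had 3. In every copy printed here, the sequence passed from one exon to the next without the intron. The copies not printed include the bound Rps2-ps5 and Rpl15-ps2 with 2 differences each, the bound Rpl36-ps8 with 4 and the unbound Rps2-ps9 with 6. Differences in this stretch thus overlapped between bound and unbound copies.

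At the parent genes, the peaks lay mostly downstream of the TSS and over exons and introns of the gene body, except at Rpl13a. Of 78 ribosomal protein genes found in the annotation, these 5 were the bound ones, 6.41%, beside 10.2% of all genes and 14.2% of protein-coding genes. Rps2 was the bound gene among 32 of the small subunit, and the other 4 were among 46 of the large subunit. As the 5 genes were chosen for their peaks, nothing is read from their share.

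Rps2 (ENSMUSG00000044533.9, chr17:24855061-24858874, plus strand) had the peak with the highest score of the 5 parents, where the score is 10 times the −log10 of the p-value from the peak caller. Its peak, chr17:24857023-24858563, was 1541 bp wide with a score of 450.1, rank 466 of 3336 peaks. It began 32 bp upstream of the TSS of the main transcript Rps2-001 and ended 1508 bp downstream of it. Exons 1, 2 and 3 lay wholly within the peak, and exons 4 and 5 lay outside it. The midpoint was in intron 2, 738 bp from that TSS and 25.0 bp from the start of a transcript with a retained intron, the nearest annotated TSS. The snoRNA gene Snora64 also starts in that intron, 76.0 bp upstream of the midpoint, and the noncoding gene Snhg9 starts 883 bp from it. The peak can be assigned to any of the 3 genes by distance alone.

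Rpl15 (ENSMUSG00000012405.9, chr14:19100337-19103905, minus strand) had a peak that left out the start of its main transcript. The peak, chr14:19102288-19103291, was 1004 bp wide with a score of 191.5, rank 2077. It began 290 bp downstream of the TSS of Rpl15-001, covered exons 2 and 3 wholly and reached neither the noncoding exon 1 nor exon 4. Its midpoint was in intron 2, 350.5 bp from the nearest TSS. Nkiras1, which encodes a Ras-like inhibitor of NF-kappaB signalling, is transcribed from the other strand and starts 860.5 bp from the midpoint.

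Rpl36 (ENSMUSG00000057863.5, chr17:56752818-56753666, plus strand) was the parent whose peak spanned the whole gene. The peak, chr17:56751997-56753892, was 1896 bp wide with a score of 255.6, rank 1445, and reached from 821 bp upstream to 1074 bp downstream of the TSS. All 4 exons lay within it, and 21.3% of the peak was exon. The midpoint lay in intron 1, 126.5 bp from the TSS.

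Rpl28 (ENSMUSG00000030432.6, chr7:4744476-4746164, plus strand) had a peak over nearly the whole gene body. The peak, chr7:4744526-4746375, was 1850 bp wide with a score of 231, rank 1636. It began 50 bp downstream of the TSS of Rpl28-001 and held exons 2 to 5 wholly, with 60.0% of exon 1. The midpoint was in intron 3, 974.5 bp from that TSS, which is close to the limit of 1000 bp, but 1.50 bp from the start of a transcript with a retained intron.

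Rpl13a (ENSMUSG00000074129.5, chr7:52380928-52391787, minus strand) differed from the other parents in where its peak lay. The peak, chr7:52391047-52392924, was 1878 bp wide with a score of 185.8, rank 2143, and held no exon of the main transcript Rpl13a-001, whose TSS lay 7868 bp away. It counted as bound because 2 of its 13 transcripts start farther upstream, the nearer of them 198.5 bp from the midpoint. Flt3l, which encodes the ligand of the cytokine receptor Flt3, starts 183.5 bp from the same midpoint, and which gene the peak belongs to cannot be told apart by position.

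**Figure D1:**
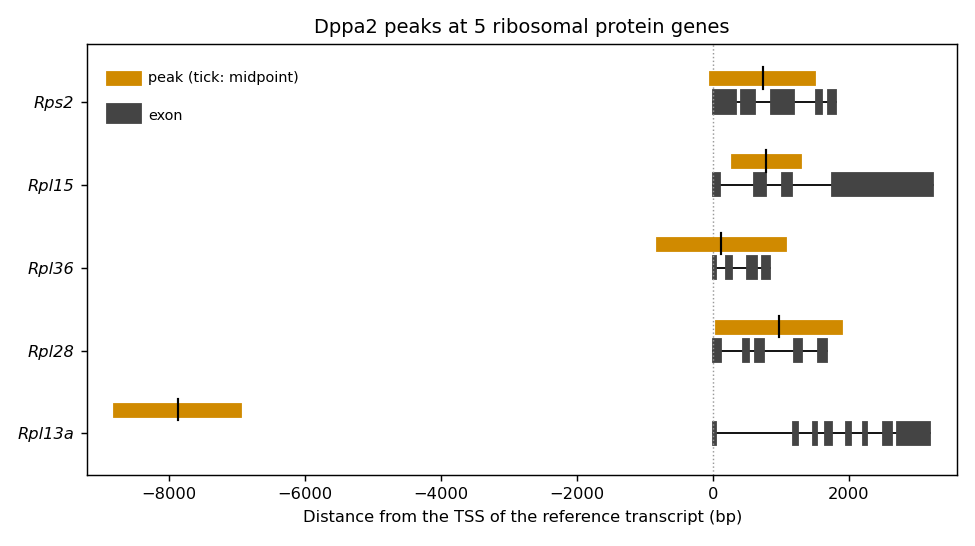
Positions of the Dppa2 peaks (orange, black tick at the midpoint) and of the exons (grey) of the main transcript of 5 ribosomal protein genes, with distance from its TSS in bp on the x axis and all genes drawn 5′ to 3′. The peaks of Rps2, Rpl15, Rpl36 and Rpl28 overlap exons, with midpoints 126.5 to 974.5 bp downstream of the TSS, and the peak of Rpl13a lies 7868 bp upstream.

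The plot of peaks over the parent genes shows these positions on a common scale. The score median of the 5 parent peaks was 231, beside 227.9 for all 3336 peaks. None of the 5 was among the 334 peaks with the highest scores. Their GC content was 53.9% to 56.1%.

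Of the 19 pseudogenes, 12 had a peak midpoint within 1000 bp of a TSS, 63.2%. The share over all annotated genes was 10.2%, and it was 4.83% of 5201 genes of type pseudogene and 6.03% of 696 genes with a -ps name. Of 144 -ps pseudogenes of the other ribosomal protein genes, 9 were bound, 6.25%. As the families were chosen with bound copies known, nothing is read from the difference, and copies of 1 parent share their sequence and are not independent. By parent, 4 of 6 were bound for Rps2, 2 of 3 for Rpl15, 4 of 6 for Rpl36, 2 of 3 for Rpl28 and 0 of 1 for Rpl13a. In the annotation, 17 of the 19 have 1 exon, and 6 of the 19, with 4 of the bound 12, are typed as protein-coding in spite of their names.

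The bound and the unbound pseudogenes lay far apart in distance. The bound ones farthest from a TSS were Rpl36-ps2 at 467 bp and Rps2-ps6 at 466 bp. The unbound one nearest to a peak was Rps2-ps9, with a midpoint 72.3 kb away. The other unbound ones were Rps2-ps4 at 124.7 kb, Rpl15-ps1 at 269.4 kb, Rpl36-ps7 at 480.4 kb, Rpl28-ps4 at 502.7 kb, Rpl13a-ps1 at 647.7 kb and Rpl36-ps10 at 1748 kb. No gene other than the pseudogene itself had a TSS within 1000 bp of the midpoints of the 12 peaks.

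Among the Rps2 copies, 3 of the 4 bound ones had scores above that of Rps2 itself. Rps2-ps10, in an intron of Pde6a on chromosome 18, had the highest score of the 12, 750.0 at rank 116. Rps2-ps13 (chrX:50251765-50252646, plus strand) had a score of 657.4, and its peak, chrX:50251638-50252688, was filled to 83.9% by the copy. Rps2-ps6 (chr14:76636495-76637160, minus strand) had a score of 584.3 and the widest peak of the 12, chr14:76635826-76637562 at 1737 bp. Rps2-ps5 (chr14:69776911-69777576, plus strand) stood apart with a score of 102.6, rank 3291, close to the lowest score in the list, which was 100.0. Its peak was chr14:69776634-69777736.

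Both bound Rpl15 copies lay in narrow peaks on chromosome 9 that began and ended close to the copy. Rpl15-ps2 (chr9:71908720-71909406, plus strand), in an intron of Tcf12, had a score of 547.8 and a peak of 851 bp, chr9:71908605-71909455. Rpl15-ps3 (chr9:21990001-21990683, minus strand) had a score of 330.8 and a peak of 840 bp, chr9:21989964-21990803. The copy made up 80.7% and 81.3% of these peaks. Both scores exceeded the 191.5 of the parent gene.

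The Rpl36 copies were the shortest of the bound pseudogenes, and their peaks reached well beyond them on one or both sides. Rpl36-ps3 (chr12:12918792-12919175, plus strand) had a score of 697.1 in the peak chr12:12918439-12919510. Rpl36-ps8 (chr4:116512512-116512826, minus strand) had a score of 690.4 in chr4:116512181-116513529. Rpl36-ps2 (chr11:76414821-76415128, plus strand), in an intron of Abr, had a score of 560.0 in chr11:76414680-76415896. In the last 2 the midpoint lay outside the copy, 29 bp upstream of the TSS of Rpl36-ps8 and downstream of the end of Rpl36-ps2. Rpl36-ps1 (chr11:116365850-116366152, plus strand) had the lowest score of the 4, 324.8, in chr11:116365261-116366593.

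Both bound Rpl28 copies lay in introns of other genes. Rpl28-ps1 (chr1:129935146-129935559, plus strand), in Zranb3, had a score of 637.6 in the peak chr1:129934999-129935898. Rpl28-ps3 (chr4:125747071-125747561, minus strand), in Oscp1, had a score of 442.5 in chr4:125746781-125747802. The parent's score was 231.

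**Figure D2:**
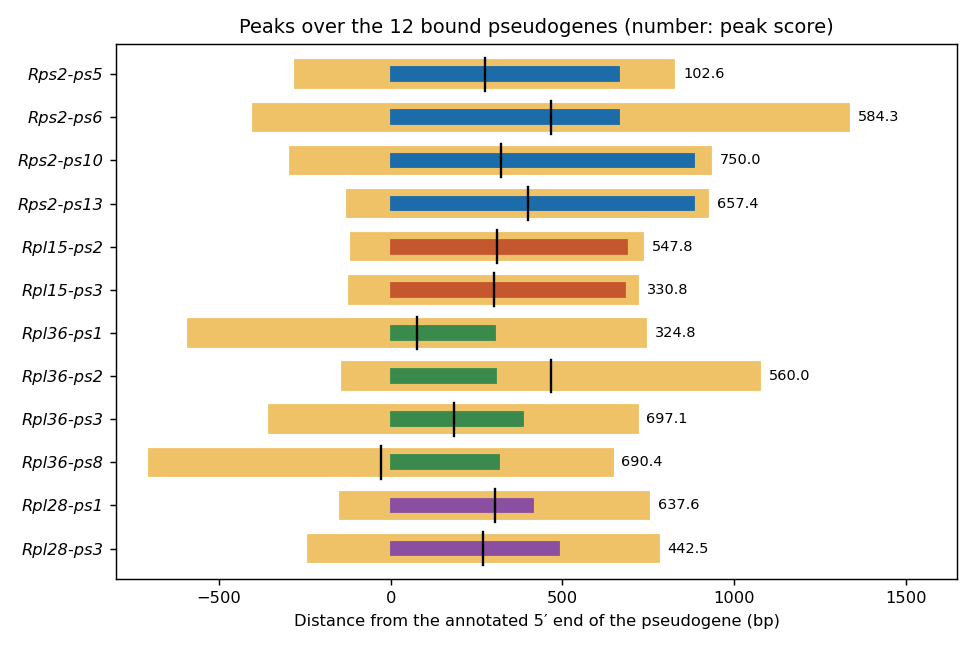
Peaks (light orange, black tick at the midpoint) over the 12 bound pseudogenes (coloured bars, one colour for each parent), with distance from the annotated 5′ end of the pseudogene in bp on the x axis and the peak score at the right of each bar. All 12 pseudogenes lie wholly within their peaks, and in 10 the midpoint is within the pseudogene.

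The plot of peaks over the pseudogenes shows that each of the 12 bodies lay wholly within its peak, with the midpoint inside the body in 10. Of the 243 other bound genes of type pseudogene, 142 (58.4%) lay wholly within the peak. Of 271 bound protein-coding genes with 1 exon, 93 (34.3%) did. The other pseudogenes include 23 with a Gm name whose peak holds sequence of the 5 messenger RNAs. A further 13 such genes are typed as protein-coding, and those with 1 exon are in the coding group. The members are short, with a median length of 578.5 bp against 765 bp and 1311 bp in those groups, so length moves with this count and its part was not tested. Any base of the body lay in a peak for the same 12 members and for 4.67% of all genes of type pseudogene.

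The distance between the midpoint and the middle of the body had a median of 66.2 bp in the members, beside 217 bp in the other pseudogenes and 361.5 bp in the coding genes with 1 exon. These medians rise with the median lengths of the groups given above, and the part of length was not tested. The score median of the 12 peaks was 572.1, against 298.8 in the other bound pseudogenes, and 8 of the 12 were among the 334 peaks with the highest scores. Their median width was 1088 bp, and 11 of the 12 were narrower than the median of all peaks, 1433 bp.

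Within the 19 pseudogenes, the bound ones were those most like the parent's messenger RNA, with exceptions on both sides. Over the annotated body, identity to the messenger RNA was 78.1% to 100% in the bound pseudogenes, with a median of 99.0%. In the unbound ones it was 84.4% to 95.9%, with a median of 92.1%. Of the 13 pseudogenes with at least 95% identity, 11 were bound. None of the 2 between 90% and 95% was bound, and 1 of the 4 under 90% was. These classes depend on the stretch measured. Over the whole copy, the bound Rps2-ps5 was at 94.1% and the bound Rpl36-ps8 at 94.9%, both between 90% and 95%.

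The bound Rpl28-ps1 and Rpl15-ps3 were at 100%, followed by Rps2-ps10 at 99.4%. Rpl36-ps8 was bound at 95%. The exception among the bound copies was Rpl36-ps1 at 78.1%. The exceptions among the unbound copies were Rpl36-ps10 at 95.9%, whose body holds 68.6% of the coding sequence, and Rpl13a-ps1 at 95.3% with all of it.

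In the other ribosomal protein families, the bound pseudogenes were also close to their parents, but most close copies were unbound. Of 88 of their -ps pseudogenes with at least 95% identity, 8 were bound, 9.09%, beside 10.2% of all genes. None of the 34 between 90% and 95% and none of the 18 under 90% was bound. The 8 bound ones had identities of 96.5% to 100% with a median of 98.7%, and the unbound ones had 73.2% to 100% with a median of 97.0%. Of 4 without an identity value, 1 was bound, Rpl13-ps1. Such pseudogenes had either no main transcript of the parent or no match in their annotated orientation, the only one searched. Their likeness to the parent is therefore not known here.

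Many retrocopies carry names that do not show their parent, and a search for the sequence of the 5 messenger RNAs found these as well. A match of at least 100 bp at 85% identity or more to one of them was present in 51 of the 3336 peaks. Of these, 28 matched Rps2, 9 Rpl15, 9 Rpl36, 5 Rpl28 and 0 Rpl13a. The nearest gene was a parent in 4 peaks, a -ps pseudogene in 11 and a gene with a Gm name in 36, of which 23 are annotated as pseudogenes and 13 as protein-coding. Rpl36-ps1 was not among the 51 peaks, as its identity is below the limit.

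In the 47 peaks outside the parents, the score median was 488.6, with a range of 102.6 to 988, and 22 of the 47 were among the 334 highest. The highest belonged to copies of Rpl36. Gm4604 (chr6:108090129-108090503, minus strand), whose junction sequence is printed above, had a score of 988.0, rank 47. Gm13611 had 872.5, Gm5745 had 818.5 and Gm5614 had 783.4. The lowest score was that of Rps2-ps5.

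In mm9 as a whole, 167 copies of the 5 messenger RNAs were found outside the parent genes: 94 of Rps2, 28 of Rpl15, 31 of Rpl36, 8 of Rpl28 and 6 of Rpl13a. Of these, 115 held at least 90% of the coding sequence. An annotated TSS lay within 1000 bp of 72 of the 115, and 44 of the 72 were in a peak, 61.1%. Beside this, any base of the body lay in a peak for 4.67% of all genes of type pseudogene. The families were chosen with bound copies known, so nothing is read from the difference. None of the 43 without such a TSS was in a peak, but the list holds peaks at TSSs, so that binding of those copies cannot be judged from it.

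By parent, 24 of 34 near-complete copies with a TSS were in a peak for Rps2, 8 of 15 for Rpl15, 8 of 14 for Rpl36, 4 of 6 for Rpl28 and 0 of 3 for Rpl13a. The copies in a peak had identities of 88.5% to 100% with a median of 97.0%. Those without a peak had 85.9% to 97.9% with a median of 89.9%. These ranges overlap. The share in a peak was 32 of 36 at 95% identity or more and 11 of 21 between 90% and 95%. From the search limit of 85% to below 90% it was 1 of 15. Copies below 85% were not searched for, so the ranges and the lowest class end there. The bound Rpl36-ps1, at 78.1% over its annotated body, is left out for this reason.

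The lowest identity in a peak and the highest without one differed between the families. The values here are for near-complete copies at 85% identity or more with an annotated TSS. Shorter copies went beyond them. Gm7638, with 77.9% of the Rps2 coding sequence, was in a peak at 88.3%. Gm13094, with 46.4% of that sequence, was in none at 95.8%. For Rps2, all 16 near-complete copies at 95% or more were in a peak, the copy with the lowest identity in a peak was Gm12922 at 88.5%, and the highest without one was Gm12176 at 93.1%. For Rpl15, Gm5292 was in a peak at 91.0% and Gm14094 was not at 95%. For Rpl36, Gm8973 was in a peak at 93.3% and Rpl36-ps10 was not at 95%, measured here over the whole copy. The 2 groups did not overlap for Rpl28, with Gm13226 in a peak at 95.2% and Gm13478 without at 87.9%. None of its 6 copies lay between these identities, so no limit can be placed. For Rpl13a, Gm11478 had no peak at 97.9%, and as none of its 3 copies was in a peak, no limit can be placed either. The identity was not used to choose the 5 parents, but copies of 1 family are related, so no test is given.

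**Figure D3:**
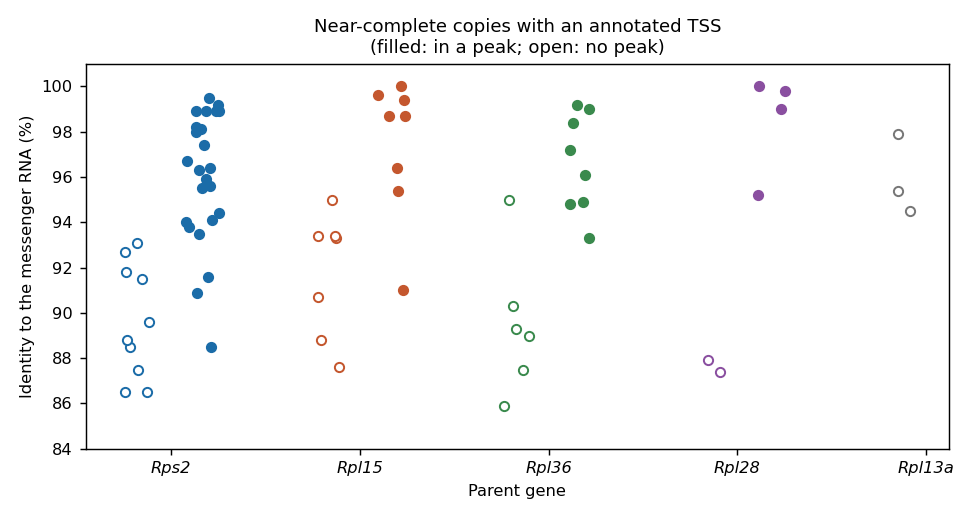
Identity to the parent's messenger RNA in percent (y axis) of the 72 near-complete copies with an annotated TSS within 1000 bp, by parent gene (x axis), with filled points for the 44 copies in a peak and open points for the 28 without, spread sideways for visibility. At 95% or more, 32 of 36 copies are in a peak, and from the search limit of 85% to below 90% 1 of 15 is. Copies below 85%, such as the bound Rpl36-ps1 at 78.1%, are not drawn.

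The plot of identity by parent gene also shows that the 3 copies of Rpl13a, at 94.5% to 97.9%, lay in the range where most copies of the other 4 parents had a peak. Copies in a peak were also richer in GC, with a median of 56.0% against 52.9% without a peak. The ratio of observed to expected CpG dinucleotides had medians of 0.491 and 0.339, with ranges of 0.322 to 0.856 and 0.167 to 0.746. In Rpl36, the ratio had a median of 0.795 in 8 copies with a peak and 0.464 in 6 without. Identity, GC and CpG content move together here, and the part of each was not tested.

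Among the 47 copies in a peak, the peak midpoint lay within the copy in 43, and the whole copy lay within the peak in 39. The middle of the peak lay on the 5′ side of the middle of the copy in 37 of 47, and over all 47 the median position was 76.5 bp to that side. This held for 24 of 27 copies of Rps2, 6 of 8 of Rpl15 and 6 of 8 of Rpl36, with median positions 114.5, 28.5 and 34.0 bp to the 5′ side. The copies of Rpl28 differed, with 1 of 4 on the 5′ side and a median position 19.0 bp to the 3′ side. In the annotation each of these 47 peaks had 1 gene within the window.

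Copies closer to the messenger RNA tended to have higher scores. Across the 47 copies, Spearman's rho between identity and score was 0.454, given as a description with no p because the copies share a library and their sequence. It was 0.681 across 27 Rps2 copies, 0.515 across 8 Rpl15 copies and 0.476 across 8 Rpl36 copies. The level differed between the families, with score medians of 352.9 for Rps2, 287.9 for Rpl15, 740.2 for Rpl36 and 487.7 for Rpl28.

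Identical sequence in many places also bears on where reads can be placed. Reads had been aligned by the authors with a seed of 36 bases, and a read that fitted several places was reported at its best match. Words of 36 bases that occur more than once in mm9 were therefore counted. Such words are identical at each place, and how reads that fitted several places equally well were placed is not given. In the copies in a peak, a median of 68.5% of the words were repeated, with a range of 23.8% to 100%. In near-complete copies with a TSS the median was 71.0% with a peak and 19.2% without one. In the sequence of the same peaks outside the copy the median was 1.70% with a range of 0 to 100%, and it was 0 in 22 of the 47. The highest shares outside the copy were 100% of 38 words at Gm12922 and 96.2% of 26 words at Gm9013, where the peak hardly exceeded the copy. Some longer stretches outside the copy were also rich in repeated words, with 64.7% of 292 words at Gm11249 and 51.7% of 545 words at Gm10051.

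At the parents the repeated words lay in the exons. In the Rps2 peak, 73.0% of the words within exons were repeated, with a median of 19 occurrences, against 5.86% of the other words. The values were 100% and 0 in the Rpl15 peak, 93.2% and 8.28% in the Rpl36 peak and 90.2% and 1.16% in the Rpl28 peak. In the Rpl13a peak, which holds no exon of the main transcript, 3.69% of words were repeated.

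Among the -ps pseudogenes, the body of the bound ones had a median of 90.9% repeated words, and that of the unbound ones 28.1%. The exception was Rpl36-ps1, with 0 repeated words and a score of 324.8. In Rps2-ps10, Rpl15-ps3 and Rpl28-ps1 the share was 100%, with words of 36 and of 50 bases. No such word of these bodies was unique in mm9. In the other 3285 peaks of the list, the median share of repeated words was 0, beside 47.8% in the 51 peaks with sequence of the 5 messenger RNAs. The 51 peaks were chosen for sequence that has many copies in mm9, so nothing is read from this contrast. Among the copies, the share of repeated words moved with the presence of a peak. This share is tied to identity by construction, as words unchanged between copies are repeated. It is therefore not separate from the relation of identity to peaks. Whether reads from one copy or from the parent's exons were placed on other copies cannot be seen in the list, and the part of such placement in the peaks was not tested.

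**Figure D4:**
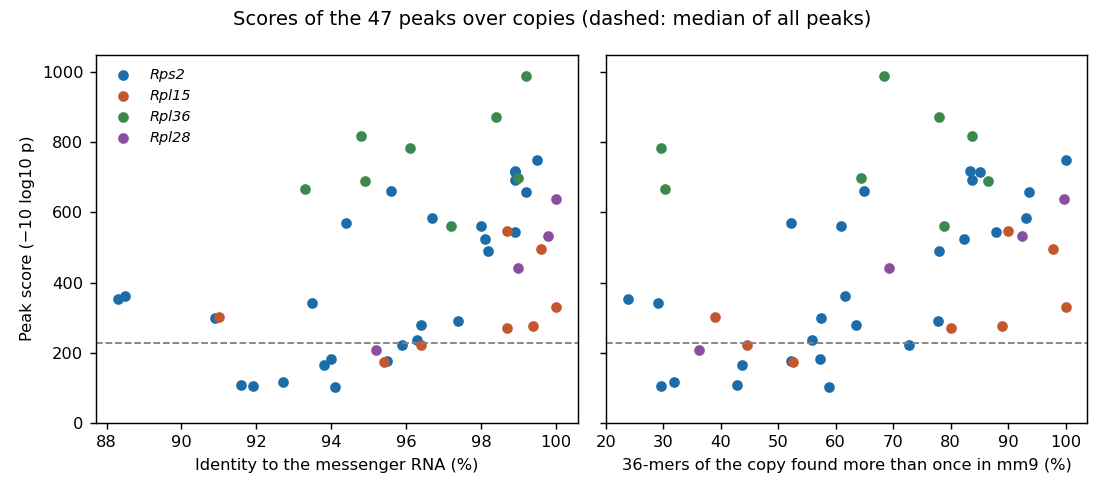
Peak score (y axis, −10 log10 of the p-value) of the 47 copies in a peak against their identity to the parent's messenger RNA in percent (left) and against the share of their words of 36 bases found more than once in mm9 in percent (right), coloured by parent gene, with the median of all peaks as a dashed line. Scores run from 102.6 to 988, and the copies of Rpl36 (green) all lie at 560 or above.

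The plot of scores against identity and repeated words shows that the Rpl36 copies in it had scores of 560 to 988 across identities from 93.3% to 99.2%. The Rps2 copies ranged from 102.6 to 750. The bound Rpl36-ps1, with a score of 324.8 at 78.1% identity, is below the search limit of 85%. It is neither in the plot nor in the copy medians. The peaks of the 4 parents in which exons lay scored 191.5 to 450.1. For Rps2, Rpl15, Rpl36 and Rpl28, the parent's score of 450.1, 191.5, 255.6 and 231 stands beside copy medians of 352.9, 287.9, 740.2 and 487.7.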

How the data were processed

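Anti-V5 ChIP-seq reads of V5-Dppa2 CGR8 cells had been processed by the authors, who removed reads of low complexity with prinseq-lite, aligned the rest to mm9 with Bowtie 0.12.7 (seed of 36 bases, at most 2 mismatches, best alignment kept), removed duplicates (Picard 1.81 is named in the submitters' processing notes) and called peaks with MACS 1.4.2 at a shift size of 75 bp, retaining those with 100 or more reads and a p-value no larger than 1e-10. The deposited score is 10 times the −log10 p-value by the authors. Peaks were compared with a control by the authors, and how the control ChIP entered the peak calling for Dppa2 is not given in the sources used here. Peak names in the list refer to TSSs, and the list was taken to hold peaks at TSSs.

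Starts were converted to count from 1. The list gives no summits, so midpoints were set against every TSS of GENCODE M1, with a window of 1000 bp after the authors' definition of a bound gene. The main transcript of a parent is the one numbered 001, or 201 where there is none. Spliced transcripts were searched in mm9 and in the peaks with BLAST 2.17.0 (e-value 1e-10, at least 100 bp and 85% identity, pieces up to 500 bp apart joined). Near-complete copies hold at least 90% of the coding sequence. Identity was measured over the matched part of the messenger RNA alone. In the genome search, that part was 84.6% of the messenger RNA for Rps2-ps10 and 36.6% for Rpl15-ps3. Words of 36 bases were counted on both strands. The code was tested on simulated data and recovered 500 of 500 TSS distances, 472 of 472 word counts and 40 of 40 planted copies. Calculations used edlib 1.3.9, numba 0.67.0, pysam 0.24.0, scipy 1.17.1, matplotlib 3.10.9 and numpy 2.4.6 in Python 3.11.15. Rpl41 was not found in the annotation by name.

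The genes named are the parents, their -ps pseudogenes, genes nearest to other peaks with sequence of a parent's messenger RNA, and other ribosomal protein genes with a bound -ps pseudogene. Some of the last are not reported here. Copies without a peak are named only at the edges of identity, where they were chosen after their values were seen, as were the identity classes. The members and lists were chosen with earlier results of these data known. Alternatives were a score of at least 200, a window of 500 bp, any base of the peak or body, an identity of 95%, a match of 300 bp and words of 50 bases.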

Additional observations from a re-analysis of the deposited data

How the results depend on the processing

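With peaks of a score of at least 200, which left 1977 of 3336, the bound parents went from 5 to 3, as Rpl13a and Rpl15 were lost, and the bound -ps pseudogenes of other ribosomal protein genes went from 9 to 3. The bound pseudogenes of the 5 parents went from 12 to 11, as Rps2-ps5 was lost. A window of 500 bp or any base of the peak within 1000 bp gave the same 5, 12 and 9 genes, and any base of the body in a peak gave the same 12. Peaks with sequence of the 5 messenger RNAs numbered 51, and 37 at 95% identity, 48 with a match of 300 bp and 42 at a score of at least 200. The median share of repeated words in the copies in a peak was 68.5% with words of 36 bases and 53.4% with words of 50 bases, where longer words repeat less often by construction. There is no replicate to leave out. No paired analysis was possible because the values come from 1 library and from no test. The depth is unknown, peaks away from TSSs were not analysed here, and the control ChIP was not analysed here, so the antibody's background at these copies is not given.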

Other observations

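Outside the 5 families, 9 -ps pseudogenes of other ribosomal protein genes had a peak, among them Rpl10a-ps1, Rps10-ps1, Rpl18-ps2, Rps6-ps3, Rpl13-ps1, Rpl13-ps3 and Rps12-ps3. The scores ran from 114.2 at Rpl18-ps2 to 338.3 at Rps12-ps3. The body lay wholly in the peak in each of those named except Rps12-ps3, where 90% of it did. The parent genes of those named had no peak within 1000 bp of a TSS. The nearest peak midpoint was 14.7 kb away for Rpl10a and 19.2 kb for Rps10, and the farthest was 924.8 kb away for Rps12.

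Copies of 2 different parents lay next to each other on chromosome 6. Gm10420 (chr6:122646016-122646942, plus strand), a copy of Rps2 at 98.2% identity, and Gm10224 (chr6:122648381-122649085, minus strand), a copy of Rpl15 at 98.7%, were 1438 bp apart. Each had its own peak, with scores of 488.6 and 271.3 and 600 bp between the peaks. The TSS of Nanog, which encodes a transcription factor of pluripotency, was 9.01 kb from the midpoint of the peak at Gm10224.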
